A study of Mus musculus with 6 samples.

Results

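Genes of homologous recombination, the Fanconi anemia pathway and neighbouring DNA repair routes were examined in Neuro2a cells, a mouse neuroblastoma line. The genes were taken by symbol from the count table: Fanc genes, symbols that start with Rad50 to Rad59, Xrcc1 to Xrcc6, Brca1, Brca2, Msh genes, and Atm, Atr, Chek1, Chek2, Palb2, Bard1, Mre11a, Nbn, Pms2, Exo1, Blm, Wrn and H2afx. This gave 47 of the 24391 genes in the table. The symbols reach beyond recombination and Fanconi repair. Pms2 and the Msh genes other than Msh4 and Msh5 act in mismatch repair, and Msh4 and Msh5 act in meiosis. Xrcc4, Xrcc5 and Xrcc6 act in end joining and Xrcc1 in single-strand break repair. Rad54l2 was matched by name only, since its product is a chromatin remodelling enzyme related to the RAD54 proteins by sequence. The group is therefore called the repair genes here.

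Both groups of cells spent 18 h in fetal bovine serum and the medium named D-MEM(-SG) before RNA was taken. The D-serine cultures also received 5 mM D-serine, the mirror image of the common amino acid L-serine. Control cultures received vehicle. Each group had 3 poly(A) RNA libraries. The labels do not say whether the libraries came from separate cultures, so p-values measure the spread between these samples, which may be technical.

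Total counts lay between 32518483 and 40024265 per library. Of the 14 neuroblastoma markers, Hand2 (242 CPM in control) and Tubb3 (490 CPM) were high, whereas Th (1.49 CPM) and Dbh (1.53 CPM) were low. CPM is the read count normalised to the scaled library size. Summed markers of fibroblasts (4.62 to 6.90 CPM over the 6 libraries), macrophages (1.02 to 2.20 CPM), astrocytes (0.0620 to 0.546 CPM), endothelium (3.60 to 4.71 CPM), epithelium (0.510 to 1.31 CPM) and oligodendrocytes (15.1 to 16.6 CPM, mostly Mbp) were low in both groups. D-serine replicate 1 stood apart from the others. The slope of its log2 CPM deviation on log2 exonic length was -0.0717, so long genes read low in it. The slope was 0.0058 and -0.0040 in D-serine replicates 2 and 3, and 0.0356, 0.0191 and 0.0152 in control replicates 1 to 3. All D-serine slopes thus lay below all control slopes. Removal of the length trend therefore also takes out a difference between the groups, and the trend cannot be told apart from the treatment. Values that moved most with this library are also given without it or with each library's trend on gene length removed.

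Homologous recombination copies the sister chromatid to mend a DNA break. The kinases ATM and ATR signal the break, the MRE11, RAD50 and NBN proteins open its ends, and BRCA1, PALB2 and BRCA2 prepare the single strand for the search for its copy. The Fanconi proteins detect crosslinks that join both strands at a stalled fork, and pass the break that is made there to the same recombination proteins. Dividing cells use these routes mainly during and after DNA replication, and transcripts of many of the genes follow the cell cycle.

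The question here was which repair transcripts differ between cultures with and without added D-serine. Of the 47 genes, 46 had enough counts to be tested, and Rad51ap2 had 0 counts in every library. At an adjusted p under 0.05 (edgeR quasi-likelihood test, Benjamini-Hochberg over 13366 genes) 4 rose with D-serine, namely Xrcc2, H2afx, Xrcc5 and Rad51c, and 3 fell, namely Fancm, Xrcc1 and Rad51ap1. The 7 genes make up 15.2% of those tested, beside 9.74% of all tested genes, with 4.84% of all genes higher and 4.9% lower. Scaling by upper quartile gave 5 higher and 2 lower repair genes and shifted the split over all genes from 647 higher and 655 lower to 914 and 412. The difference between these shares was not tested. Changes were small: log2 fold changes of the 46 genes ran from -0.26 to 0.45, with a median of 0.0084 beside 0.0053 over all tested genes. Positive values were found for 24 genes and negative values for 22. Control and D-serine libraries were fully apart in 17 of the 46 genes (37.0%), beside 32.9% of all tested genes. An unadjusted p under 0.05 was found for 17 of the 46, beside 3769 of all 13366 tested genes. Calls and unadjusted p-values by role are to be read beside these values over all genes. DESeq2 (Wald test) called 12.3% of all tested genes and limma-voom 9.43%, and their calls below are to be read beside these shares. For the other fits below, the number over all genes with an unadjusted p under 0.05 was not counted.

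The calls depended on single libraries. The same fit called 0 of the repair genes without control replicate 1, without control replicate 2 or without D-serine replicate 3, where 12, 16 and 14 of them had an unadjusted p under 0.05. Without control replicate 3 H2afx alone was called. These fits also called fewer genes of the whole table, 0.921%, 0.501%, 2.15% and 3.34% of those tested. Without D-serine replicate 2 there were 7 calls, 2 higher and 5 lower, which kept 5 of the 7 and lost Xrcc2 and H2afx. Without D-serine replicate 1 there were 11 calls, 8 higher and 3 lower, and all 7 were kept with the same direction. These fits called 11.6% and 12.5% of all tested genes. With the length trend removed, 13 were called, 9 higher and 4 lower, again with all 7 kept, beside 15.3% of all genes called in that fit (7.65% higher, 7.63% lower).

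The 7 called genes lie on different chromosomes. The genes that rose are Xrcc2 on chromosome 5 (25195634 to 25211615, minus strand), H2afx on chromosome 9 (44142798 to 44144156, plus strand), Xrcc5 on chromosome 1 (72353995 to 72441527, plus strand) and Rad51c on chromosome 11 (87191109 to 87218456, minus strand). Those that fell are Fancm on chromosome 12 (66176593 to 66233045, plus strand), Xrcc1 on chromosome 7 (25332169 to 25358457, plus strand) and Rad51ap1 on chromosome 6 (126873437 to 126889573, minus strand). Positions are as deposited and counted from 1. The table does not name its build, and gene starts and ends differ from those of GRCm38, so they are not to be set beside the promoter positions given further on. Its counts cover the exons of each gene.

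**Figure D1:**
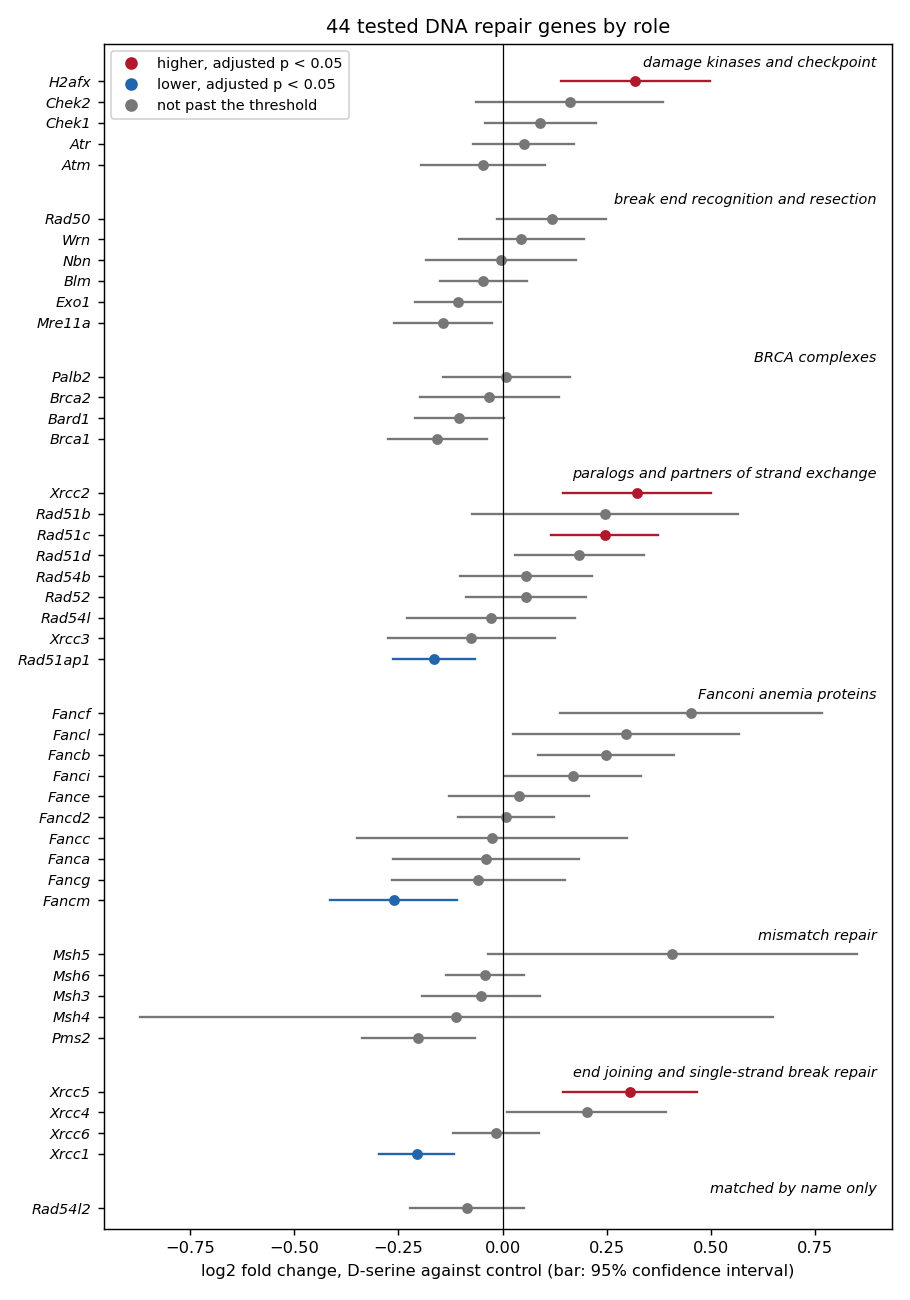
Log2 fold changes of 44 tested repair genes (x axis) by role, D-serine against control, with bars for the 95% confidence interval, 3 libraries per group. Red marks the 4 genes called higher, blue the 3 called lower, and grey the genes past no threshold, whose widest interval is that of Msh4.

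Among the damage kinases and checkpoint genes, 1 of 5 rose. H2afx encodes the histone variant that ATM and ATR phosphorylate around a break. It read 21.0, 19.3 and 24.6 CPM in control replicates 1 to 3 and 26.4, 27.6 and 27.0 CPM in D-serine replicates 1 to 3. The groups did not overlap, and control replicate 3 came nearest to the D-serine libraries. The mean rose from 21.6 ± 2.68 in control to 27.0 ± 0.62 CPM (mean ± SD over 3 libraries each), a log2 fold change of 0.32 with a standard error of 0.083 (edgeR, adjusted p = 0.0320). It is the shortest of the 47 genes, with 1359 exonic bases, and with the length trend removed its log2 fold change was 0.25 (edgeR adjusted p = 0.0365). The call was lost without control replicate 1 or 2 and without D-serine replicate 2 or 3, with a highest adjusted p of 0.139.

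The kinases themselves were not past the threshold. Atm, which responds to double-strand breaks, read 106, 100.3 and 99.6 CPM in the controls and 85.8, 106 and 104 CPM with D-serine. The groups overlapped, and D-serine replicate 1 was the lowest library. Its log2 fold change was -0.05 (95% confidence interval -0.20 to 0.10), 0.04 without D-serine replicate 1 and 0.11 with the length trend removed, so its direction was not settled. Atr, which responds to single-stranded DNA at forks, read 90.8, 87.1 and 84.0 CPM in the controls and 83.6, 95.03 and 92.5 CPM with D-serine. The other two D-serine libraries lay above all controls, and replicate 1 below them all. Its log2 fold change was 0.05 (interval -0.07 to 0.17), and removal of the length trend took it to 0.16 and past the threshold (edgeR adjusted p = 0.00865).

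The checkpoint kinase Chek1, which acts below ATR, read 53.9, 64.1 and 60.4 CPM in the controls and 63.6, 62.7 and 63.8 CPM with D-serine. The D-serine values lay within the span of the controls. Its log2 fold change was 0.09 (interval -0.04 to 0.22). Chek2, which acts below ATM, was expressed at 8.74, 8.47 and 10.3 CPM in the controls and 11.0, 9.76 and 9.95 CPM with D-serine, with overlap of the groups and a log2 fold change of 0.16 (edgeR adjusted p = 0.335).

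In the genes that recognise and resect break ends, 0 of 6 were past the threshold in edgeR, limma-voom and DESeq2, and 2 had an unadjusted p under 0.05. Mre11a, the nuclease of the MRE11 complex, read 40.2, 38.6 and 40.2 CPM in the controls and 34.9, 36.2 and 36.6 CPM with D-serine. All D-serine libraries were below all controls (log2 fold change -0.14, edgeR adjusted p = 0.108). Exo1, an exonuclease of resection and mismatch repair, read 195, 177 and 178 CPM in the controls and 168, 174 and 170 CPM with D-serine, again without overlap (log2 fold change -0.11, edgeR adjusted p = 0.165).

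The partners of MRE11 were not past the threshold. Rad50, the arm of the complex, read 115, 113 and 106 CPM in the controls and 109, 125 and 128 CPM with D-serine. The groups overlapped through D-serine replicate 1 (log2 fold change 0.12, edgeR adjusted p = 0.221). Rad50 was past the threshold without that library, and with the length trend removed it stood at 0.17 (edgeR adjusted p = 0.0138). Nbn, the third subunit, had a log2 fold change of -0.0039 (interval -0.18 to 0.18). The helicases Blm (-0.05) and Wrn (0.04) had adjusted p-values of 0.566 and 0.716 in edgeR.

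The BRCA genes also had 0 of 4 past the threshold in edgeR, limma-voom and DESeq2, with 1 unadjusted p under 0.05. Brca1 read 283, 284 and 279.5 CPM in the controls and 229, 271 and 259.8 CPM with D-serine. Every D-serine library was below every control, and replicate 1 was the lowest by far. Its log2 fold change was -0.16 with a standard error of 0.055 (edgeR, adjusted p = 0.0881) and -0.07 with the length trend removed (adjusted p = 0.158). Without D-serine replicate 1 it was -0.089 (edgeR adjusted p = 0.101), and without D-serine replicate 2 it was -0.207 and past the threshold (adjusted p = 0.031). Bard1, the obligate partner of BRCA1, read 79.5, 80.4 and 78.2 CPM in the controls and 70.1, 77.1 and 74.5 CPM with D-serine, without overlap (-0.10, edgeR adjusted p = 0.192).

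Brca2, which acts at the resected break, is among the longest genes of the group, with 11133 exonic bases. It read 74.6, 72.1 and 69.9 CPM in the controls and 60.2, 77.3 and 74.5 CPM with D-serine. Replicate 1 was again the lowest, and the other two D-serine libraries lay within or above the controls. The log2 fold change was -0.03 (interval -0.20 to 0.14), 0.07 without D-serine replicate 1 and 0.11 with the length trend removed. With both changes it was 0.137 and past the threshold (edgeR adjusted p = 0.044), the only call among 17 alternatives. Palb2, which bridges BRCA1 and BRCA2, had a log2 fold change of 0.0086 (interval -0.14 to 0.16).

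The genes of strand exchange and its partners held 3 of the 7 calls, 2 higher and 1 lower of 10 tested. The paralogs RAD51B, RAD51C, RAD51D, XRCC2 and XRCC3 form small complexes that help strand exchange. Rad51c read 33.0, 32.1 and 33.0 CPM in the controls and 41.0, 38.3 and 36.9 CPM with D-serine. The groups were well apart, since the controls lay close together. The mean rose from 32.7 ± 0.51 in control to 38.7 ± 2.11 CPM (mean ± SD over 3 libraries each), a log2 fold change of 0.25 with a standard error of 0.059 (edgeR, adjusted p = 0.0253). Xrcc2 read 13.9, 15.5 and 13.4 CPM in the controls and 18.5, 18.2 and 16.9 CPM with D-serine. It rose from 14.3 ± 1.11 in control to 17.8 ± 0.87 CPM (mean ± SD over 3 libraries each), a log2 fold change of 0.32 with a standard error of 0.082 (edgeR, adjusted p = 0.0292), and its groups did not overlap.

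The other paralogs were not past the threshold. Rad51d read 18.0, 18.9 and 20.3 CPM in the controls and 21.0, 21.5 and 22.4 CPM with D-serine, without overlap. Its log2 fold change was 0.18 (edgeR adjusted p = 0.116), and 0.29 with the length trend removed, where it was called (adjusted p = 0.0141). Rad51b had a log2 fold change of 0.25 with a wide interval, -0.07 to 0.57, at 5.36 CPM in control. Xrcc3 had -0.08 (interval -0.28 to 0.13), so the 5 paralogs did not all have the same sign.

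Rad51ap1, whose product stimulates strand pairing, read 112, 109 and 105 CPM in the controls and 97.0, 97.8 and 95.6 CPM with D-serine. It fell from 108 ± 3.82 in control to 96.8 ± 1.12 CPM (mean ± SD over 3 libraries each), a log2 fold change of -0.16 with a standard error of 0.045 (edgeR, adjusted p = 0.0394), with all D-serine libraries below all controls. The call was absent when libraries were scaled by upper quartile or by total counts, where the value stayed negative. Rad52, Rad54l and Rad54b had log2 fold changes of 0.06, -0.03 and 0.06, and Rad54b shares 58.5% of its exonic bases with Fsbp on the same strand, so its count is uncertain.

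**Figure D2:**
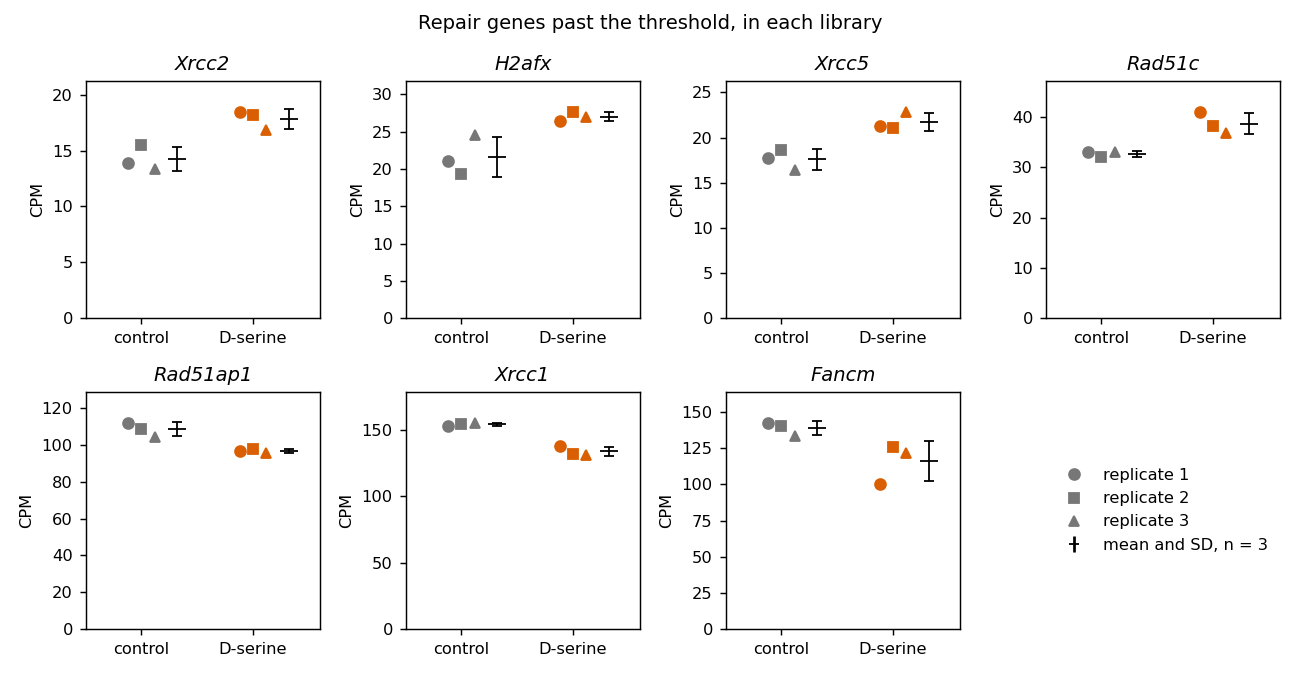
CPM of the 7 repair genes past the threshold (y axes, each from 0) in each of the 6 libraries, with marker shape for the replicate number and the mean with SD beside each group. The groups do not overlap in any of the 7 genes, and for Fancm D-serine replicate 1, at 100.3 CPM, lies well below its fellows.

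Of the 10 Fanconi genes, 1 fell and 0 rose at the threshold in edgeR and limma-voom. In edgeR 5 had an unadjusted p under 0.05, beside 3769 of all 13366 tested genes. DESeq2 (Wald test) also called Fancb higher. Fancm encodes the translocase that recognises a stalled fork and anchors the core complex. It read 143, 141 and 134 CPM in the controls and 100.3, 126 and 122 CPM with D-serine. It fell from 139 ± 4.73 in control to 116 ± 13.8 CPM (mean ± SD over 3 libraries each), a log2 fold change of -0.26 with a standard error of 0.071 (edgeR, adjusted p = 0.0362). Fancm is long, with 7775 exonic bases, and with the length trend removed the value was -0.16 (adjusted p = 0.0146). Without D-serine replicate 1 it was -0.167 (edgeR adjusted p = 0.0117). The value thus moved over 1.5 times with either change, and it stayed negative in all 17 alternatives, between -0.325 and -0.113.

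The core complex, which ubiquitinates FANCD2 and FANCI, had positive values in the subunits Fancb, Fancf and Fancl. Fancb read 26.4, 27.4 and 23.8 CPM in the controls and 29.1, 33.5 and 29.6 CPM with D-serine, with every D-serine library higher. Its log2 fold change was 0.25 with a standard error of 0.076 (edgeR, adjusted p = 0.0565), and it was past the threshold in 8 of the 17 alternatives, DESeq2 (Wald test) and the removal of the length trend among them. Fancf read 3.47, 3.56 and 4.22 CPM in the controls and 4.61, 5.06 and 5.73 CPM with D-serine (log2 fold change 0.45, edgeR adjusted p = 0.0667). Fancl, the ubiquitin ligase, stood at 4.65 ± 0.11 CPM in the controls and 5.71 ± 0.51 CPM with D-serine (0.30, adjusted p = 0.145). The other core subunits Fanca, Fancc, Fance and Fancg had log2 fold changes between -0.06 and 0.04 and overlapping groups.

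Fanca, the subunit most often altered in the human disease, read 29.5, 27.6 and 26.3 CPM in the controls and 21.7, 28.9 and 30.4 CPM with D-serine. The lowest and the highest library were both D-serine libraries (log2 fold change -0.04, interval -0.26 to 0.18). Fanca shares 17.1% of its exonic bases with Zfp276 on the opposite strand, and the strand setting of the counting is not given in the sources used here. Of the pair that the core complex modifies, Fancd2 read 114, 113 and 111 CPM in the controls and 104, 119 and 117 CPM with D-serine. It had no settled direction (0.0081, interval -0.11 to 0.12). Its partner Fanci had a log2 fold change of 0.17 (edgeR adjusted p = 0.165) and was called at 0.21 with the length trend removed (adjusted p = 0.0399).

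The mismatch repair group, in which the meiotic Msh4 and Msh5 were counted, had 0 of 6 genes past the threshold in edgeR and limma-voom. DESeq2 called 1, Pms2, and 1 had an unadjusted p under 0.05 in edgeR. Pms2, an endonuclease of mismatch repair, read 67.0, 65.6 and 61.8 CPM in the controls and 54.2, 61.7 and 53.02 CPM with D-serine. The D-serine libraries were all lower, with D-serine replicate 2 just under control replicate 3 (log2 fold change -0.20 with a standard error of 0.063, edgeR adjusted p = 0.0586). The mismatch sensors Msh3 and Msh6 had log2 fold changes of -0.05 and -0.04 and overlapping groups. Msh4 and Msh5, which act in meiosis, were barely expressed, at 0.912 and 2.14 CPM in control. Msh5 read 2.48, 1.59 and 2.36 CPM in the controls and 2.63, 2.80 and 3.08 CPM with D-serine (log2 fold change 0.41, interval -0.04 to 0.85).

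In end joining and single-strand break repair, 1 of 4 rose and 1 fell. Xrcc5 encodes KU80, which with KU70 (Xrcc6) binds broken ends. It read 17.7, 18.7 and 16.4 CPM in the controls and 21.3, 21.1 and 22.8 CPM with D-serine. It rose from 17.6 ± 1.12 in control to 21.7 ± 0.96 CPM (mean ± SD over 3 libraries each), a log2 fold change of 0.31 with a standard error of 0.075 (edgeR, adjusted p = 0.0256), and the groups were apart. Xrcc6 read 255, 279 and 287 CPM in the controls and 270, 269 and 273 CPM with D-serine, all within the span of the controls (log2 fold change -0.02, interval -0.12 to 0.09).

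Xrcc1, the scaffold of single-strand break repair, had the smallest p of the group. It read 153, 154 and 156 CPM in the controls and 138, 132 and 132 CPM with D-serine. The controls lay close together and above all D-serine libraries. It fell from 155 ± 1.13 in control to 134 ± 3.55 CPM (mean ± SD over 3 libraries each), a log2 fold change of -0.21 with a standard error of 0.042 (edgeR, adjusted p = 0.0142). The log2 fold change lay between -0.23 and -0.18 over the 17 alternatives. Xrcc4, the partner of DNA ligase IV, had a log2 fold change of 0.20 and overlapping groups (edgeR adjusted p = 0.155). Rad54l2, matched by name, read 119, 122 and 113 CPM in the controls and 99.1, 117 and 118 CPM with D-serine (-0.09, edgeR adjusted p = 0.407). Its value was 0.04 with the length trend removed.

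Levels per length compare genes with each other. In CPM per kilobase of exon, averaged over both groups, the 46 genes had a median of 10.2, beside 9.86 over all tested genes. Within the BRCA complexes the range was 8.53-fold, from Palb2 at 4.72 to Brca1 at 40.3 CPM per kilobase. In the Fanconi group it was 23.0-fold, from Fancc at 1.03 to Fancd2 at 23.6. Brca1 was 6.55 ± 0.18 times Brca2 per length in control and 6.03 ± 0.30 times with D-serine (SD, n = 3 each).

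Subunits of one complex differed in level too. Xrcc6 exceeded Xrcc5 per length by 17.4, 18.1 and 21.2 times in control replicates 1 to 3 and by 15.4, 15.4 and 14.5 times in D-serine replicates 1 to 3, with no overlap between the groups. Rad50 exceeded Mre11a by 1.66, 1.70 and 1.54 times in control and by 1.82, 2.01 and 2.04 times with D-serine, also without overlap. Rad50 exceeded Nbn by 2.43, 2.15 and 2.20 times in control and by 2.23, 2.85 and 2.34 times with D-serine, with overlap. Of 12 such ratios computed, 7 did not overlap between the groups. With 3 libraries against 3 an exact permutation test of such a ratio cannot go below p = 0.1, so no test was made. A gene's mapped length enters each level, so these ratios compare annotations as well as transcripts.

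**Figure D3:**
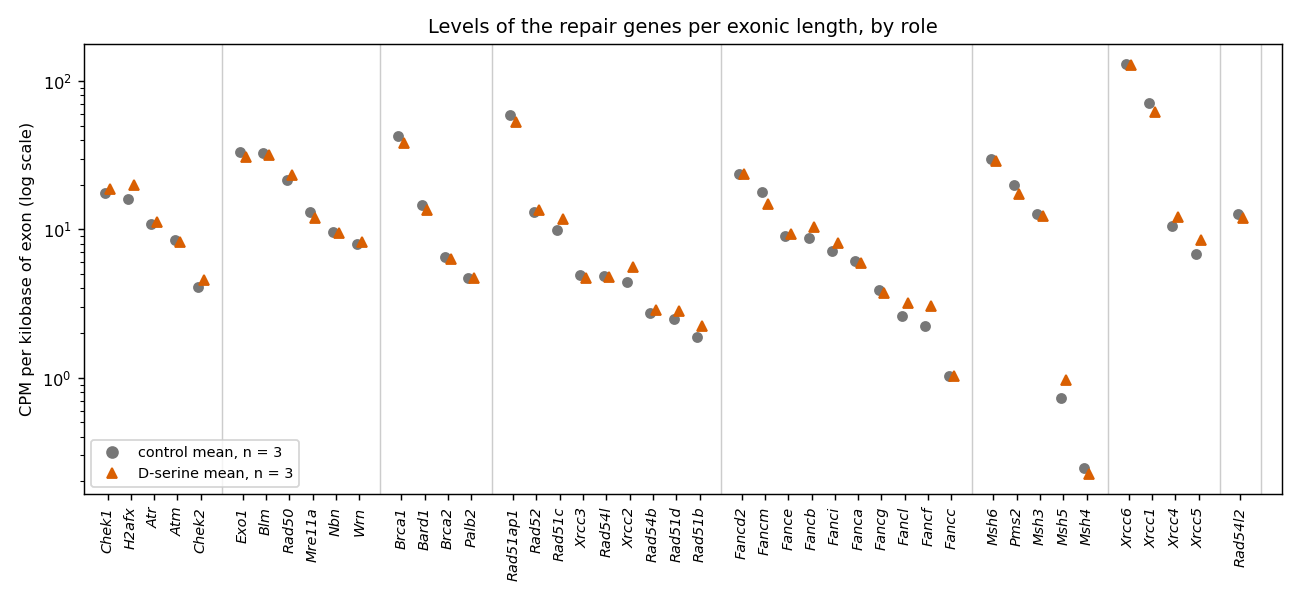
Mean CPM per kilobase of exon (y axis, log scale) of 44 tested repair genes by role, for control (grey circles) and D-serine (orange triangles), 3 libraries each. Differences between genes are far larger than differences between groups, from below 1 for Msh4 and Msh5 to above 100 for Xrcc6.

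Gene length moved with the direction of the values. Across the 46 genes Spearman's rank correlation of exonic length with log2 fold change was -0.34, beside -0.29 over all tested genes. Genes share libraries and are not independent replicates. Of the 12 repair genes longer than 5000 bases, 7 had negative values with a median of -0.04, and with the length trend removed 8 had positive values with a median of 0.11. The 34 shorter genes had medians of 0.0245 and 0.0263. The rank correlation was then -0.06 over the 46 genes. Calls that appeared on removal were Atr, Rad50, Rad51d, Fanci and Fancb, all higher, and Pms2, lower. The limit of 5000 bases was set after the values were seen, and where the length trend comes from was not tested.

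**Figure D4:**
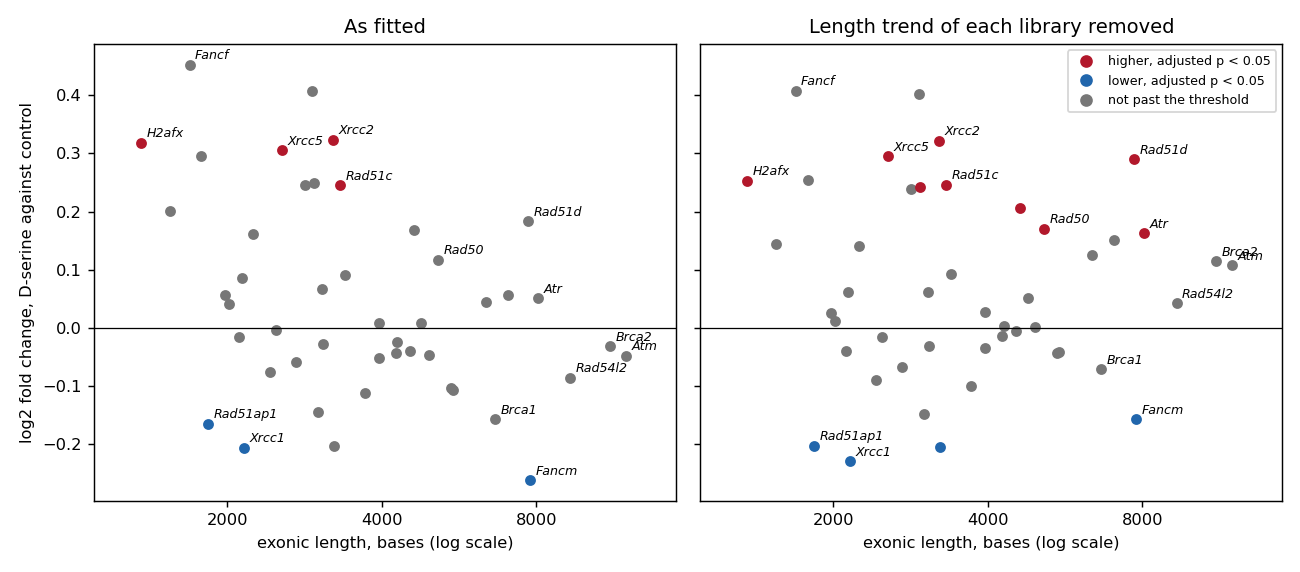
Log2 fold change (y axis) against exonic length in bases (x axis, log scale) for the 46 tested repair genes, as fitted (left) and with each library's length trend removed (right). The 3 longest genes, Atm, Brca2 and Rad54l2, lie below 0 on the left and above 0 on the right, while the 7 called genes keep their side.

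None of the 7 called genes shares exonic bases with another gene of the table. Of the other repair genes, 9 overlap a gene on the opposite strand, Fancl with Vrk2 (21.6% of its exonic bases) and Fanci with Polg (8.62%) among them, so their counts are uncertain. Promoter sequence was matched by symbol in a RefSeq table of build GRCm38.p6 for 35 of the 47 genes. It covered 5 of the 7 called genes and not H2afx or Xrcc2. The 150 bases before the start of these 5 are printed, 5′ to 3′ on the strand of the gene, to show what lies ahead of the genes that rose and fell. Capitals mark a CCAAT box (CCAAT, or ATTGG on the other strand) or an E2F site. E2F factors drive genes of the S phase, and the letters searched for them were TTTCCCGC, TTTGGCGC, TTTCGCGC and TTTGCCGC on both strands, in the 250 bases before the start.
Rad51c (chr11:87404507-87404656, minus strand): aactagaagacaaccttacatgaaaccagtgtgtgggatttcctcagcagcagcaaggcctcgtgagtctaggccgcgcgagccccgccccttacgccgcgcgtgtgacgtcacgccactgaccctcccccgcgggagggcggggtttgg
Xrcc5 (chr1:72307271-72307420, plus strand): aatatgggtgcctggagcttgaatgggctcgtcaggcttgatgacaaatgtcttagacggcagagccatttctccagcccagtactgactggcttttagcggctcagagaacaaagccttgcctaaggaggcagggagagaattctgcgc
Fancm (chr12:65075453-65075602, plus strand): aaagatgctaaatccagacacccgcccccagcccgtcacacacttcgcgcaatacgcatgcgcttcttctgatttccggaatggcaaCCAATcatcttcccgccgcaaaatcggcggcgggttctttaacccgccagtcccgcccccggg
Xrcc1 (chr7:24546549-24546698, plus strand): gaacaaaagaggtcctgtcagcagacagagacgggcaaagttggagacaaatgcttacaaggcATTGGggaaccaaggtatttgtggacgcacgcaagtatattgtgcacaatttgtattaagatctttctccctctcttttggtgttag
Rad51ap1 (chr6:126939588-126939737, minus strand): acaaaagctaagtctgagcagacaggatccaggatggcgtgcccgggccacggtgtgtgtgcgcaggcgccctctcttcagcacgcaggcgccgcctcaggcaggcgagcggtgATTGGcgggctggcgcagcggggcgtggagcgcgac

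E2F letters were found in 0 of these 5 promoters, and a CCAAT box in 4 of them, 2 times in that of Rad51ap1. In the Xrcc5 promoter, and once in that of Rad51ap1, the box lies further from the start than the printed stretch. Over all tested genes with a promoter in the table, 36.4% held a CCAAT box and 3.5% E2F letters. Of the 35 repair genes, 57.1% held a CCAAT box and 20.0% held E2F letters, which is 7 genes. E2F letters were in 25.9% of 27 genes of an S phase list. Among 60 genes of the other pathway list described further on, 48.3% held a CCAAT box and only 5.0% E2F letters. The 7 sites are shown with their surroundings because they are a feature that the choice of genes did not use. Capitals mark the E2F letters, and in Msh3 a pair of sites overlap.
Bard1 (chr1:71103163-71103192, minus strand): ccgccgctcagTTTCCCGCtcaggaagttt
Brca2 (chr5:150522442-150522471, plus strand): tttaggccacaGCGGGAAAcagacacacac
Chek2 (chr5:110839820-110839849, plus strand): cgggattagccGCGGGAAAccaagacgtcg
Fancg (chr4:43010335-43010364, minus strand): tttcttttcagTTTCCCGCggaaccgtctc
Msh3 (chr13:92355185-92355214, minus strand): gccgtcaagTTTGGCGCGAAAtcgcagccc
Msh5 (chr17:35046669-35046698, minus strand): tgacggaaaagGCGGGAAAgtgctgcgaat
Xrcc6 (chr15:82016312-82016341, plus strand): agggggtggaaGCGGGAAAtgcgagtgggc

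Of these 7 genes, 0 were past the threshold in edgeR, DESeq2 or limma-voom, beside 9.74%, 12.3% and 9.43% of all tested genes. In edgeR 0 had an unadjusted p under 0.05, beside 3769 of all 13366 tested genes. With so few genes these counts do not set them apart from all genes. Their log2 fold changes lay between -0.10 for Bard1 and 0.41 for Msh5. Brca2 was called higher with the length trend removed and D-serine replicate 1 left out (edgeR adjusted p = 0.044). A match of letters is no measured binding site.

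Other genes of these pathways were read from a list that did not use the symbols above. All 77 found in the table were tested, and 9 passed the threshold (11.7%, beside 9.74% of all genes), 6 higher and 3 lower. RPA, the complex that coats single-stranded DNA, was split: Rpa3 rose from 67.0 to 82.4 CPM (log2 fold change 0.30, edgeR adjusted p = 0.0213), Rpa1 fell from 209 to 188 CPM (-0.16, adjusted p = 0.0390) and Rpa2 stood at -0.12 (adjusted p = 0.159). The meiotic recombination cofactor Psmc3ip rose from 18.4 to 24.9 CPM (0.44, edgeR adjusted p = 0.0112). Rad18, the ubiquitin ligase of damage tolerance, rose from 66.6 to 79.6 CPM (0.26, adjusted p = 0.0160).

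Further genes that rose were Timeless, of the fork protection complex (110.1 to 125 CPM, log2 fold change 0.18), and Bre, of the BRCA1-A complex (59.2 to 69.6 CPM, 0.23). Topbp1, the activator of ATR, fell from 266 to 235 CPM (-0.18) and the helicase Recql4 fell from 98.4 to 85.6 CPM (-0.20). Adjusted p-values of these 4 in edgeR lay between 0.0367 and 0.0495. Of the 9 genes, Psmc3ip shares 6.89% of its exonic bases with Mlx and Recql4 shares 10.8% with Mfsd3, both on the opposite strand, so their counts are uncertain. The call of Bre was absent in limma-voom, and those of Rpa1, Topbp1 and Recql4, the 3 that fell, were absent with upper quartile or total scaling. In edgeR this list had 0 calls without control replicate 1 or 2, with 20 genes at an unadjusted p under 0.05 in each, 4 when control replicate 3 was left out, 1 when D-serine replicate 3 was, and 18 with the length trend removed.

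S phase and mitosis lists were read beside the repair genes, since their expression follows division. The S phase list summed to 8776, 8753 and 8930 CPM in the controls and 8453, 8370 and 8347 CPM with D-serine, without overlap. Of its 36 genes 7 fell and 1 rose in edgeR (22.2%, beside 9.74% of all tested genes). In DESeq2 9 fell and 1 rose, beside 12.3% of all tested genes called. With the length trend removed 10 fell and 1 rose, beside 15.3% of all tested genes called. The mitosis list summed to 6541, 6316 and 6084 CPM in the controls and 5576, 6042 and 5944 CPM with D-serine, also without overlap. In edgeR 1 of its 26 genes was called, Ccnb2, which rose. DESeq2 also called Cenpf and Nusap1 lower, and the fit without the length trend called 1 higher and 3 lower. In edgeR 17 of the 26 had negative values, with a median of -0.04. The 47 repair genes together summed to 2935, 2939 and 2885 CPM in the controls and 2719, 2933 and 2884 CPM with D-serine, where all but replicate 1 lay in or next to the span of the controls. Their part in the single results was not tested.

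Targets of p53, which ATM and CHEK2 act on, had 0 of 21 genes past the threshold in edgeR and limma-voom. In edgeR 4 had an unadjusted p under 0.05. DESeq2 called 1, Cdkn1a, which was lower. With the length trend removed 2 were called, Cdkn1a and Sesn2, both lower, beside 15.3% of all tested genes. The median log2 fold change of the 21 genes was 0.00089 in edgeR. The list summed to 1706, 1737 and 1809 CPM in the controls and 1767, 1699 and 1718 CPM with D-serine, with overlap.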

How the data were processed

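Poly(A) RNA was sequenced from TruSeq Stranded mRNA libraries, per the labels' protocols. A single table was deposited by the authors. It holds unnormalised read counts for each gene and library beside the exonic length of the gene, in the column layout of featureCounts per the file headers. The submitters' processing notes name Trim Galore, HISAT2, featureCounts and DESeq2 and the builds GRCm38 and mm10. The strand setting and the handling of multi-mapped reads are not given in the sources used here. Of 23186 genes compared with GENCODE M21 by symbol, 293 had the same start or end, so the table's coordinates are not those of that build.

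Counts were tested with edgeR 4.0.16 (R 4.3.3) as deposited: filterByExpr (13366 genes kept), trimmed mean of M values (TMM) scaling, quasi-likelihood F test of D-serine against control, no covariate, Benjamini-Hochberg adjustment, threshold 0.05. The standard error is the log2 fold change over the square root of F. Total counts of 32518483 to 40024265 limit precision mainly for genes of few CPM, and the biological coefficient of variation, common to all genes, was 5.77%. The pipeline was tested on simulated data. Replicates of a group differed by more than sampling noise (chi-square per degree of freedom 3.88 to 17.7), so all libraries were kept as separate samples.

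Alternatives were DESeq2 1.42.0, limma-voom (limma 3.58.1), other scalings and filters, a block for the replicate number, subtraction of a library's own natural spline trend on exonic length (5 degrees of freedom), and leaving out each library. The length removal without D-serine replicate 1 was added after the data were seen. The members, roles and lists were chosen with earlier results of these data known. Named with every library's value were the genes past the threshold, the 2 smallest p-values per role and Atm, Atr, Chek1, Brca1, Brca2, Fancd2 and Fanca; other genes named with values were chosen after these were seen. Some genes that enter the counts are not reported here by name. Promoter sequences are those of RefSeq, GRCm38.p6, the first listed per gene.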

Additional observations from a re-analysis of the deposited data

How the results depend on the processing

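The 3 replicate numbers of the 2 groups were not shown to pair the libraries: same-numbered libraries had deviations that correlated at -0.0687, 0.0197 and -0.0187. With the replicate block 298 genes passed the threshold in all, 0 repair genes rose and 0 fell (16 with an unadjusted p under 0.05, edgeR), and 2 genes of the other pathway list passed. Leaving out 1 library gave 68 to 1699 genes in all, 0 to 8 repair genes higher and 0 to 5 lower, 0 to 11 of the other list, and a repair gene median of -0.0169 to 0.0537. Removing the length trend gave 2043 genes in all, 9 repair genes higher and 18 of the other list. With the block added these were 9 and 15, and without D-serine replicate 1 they were 12 and 17, with a median of 0.0621. With no filter on low counts 5 repair genes fell and 14 of the other list passed. Upper quartile and total scaling each lowered the number of genes that fell in the whole table from 655 to 412. The cause was not tested.

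Log2 fold changes near 0 changed sign. With the length trend removed, with the block added and without D-serine replicate 1, in that order, they became 0.108, 0.108 and 0.109 for Atm, 0.00202, 0.00174 and 0.0252 for Blm, 0.114, 0.114 and 0.137 for Brca2, and 0.0421, 0.0423 and 0.053 for Rad54l2. Fancc became 0.00416 and 0.013 in the first pair. In the last, Nbn became 0.000162, Fanca 0.116 and Fance -0.0092. That fit also called Brca2 and Wrn, both higher (edgeR adjusted p = 0.044 and 0.0468), beside 13.8% of all tested genes. With upper quartile and total scaling, Nbn became 0.026 and 0.0253, Rad54l 0.00256 and 0.00178, Fancc 0.00486 and 0.00445, and Xrcc6 0.0141 and 0.0137. Leaving out 1 library gave ranges across 0 of -0.102 to 0.0427 for Atm, -0.0885 to 0.0708 for Nbn, -0.0182 to 0.122 for Wrn, -0.02 to 0.0343 for Palb2, -0.1 to 0.0717 for Brca2 and -0.125 to 0.029 for Rad54l. In the Fanconi and other genes they were -0.134 to 0.0961 for Fanca, -0.115 to 0.115 for Fancc, -0.0264 to 0.0648 for Fancd2, -0.0066 to 0.0984 for Fance, -0.117 to 0.00147 for Fancg, -0.347 to 0.284 for Msh4 and -0.0631 to 0.0215 for Xrcc6. None of the 7 called genes changed sign in the 17 alternatives. Depth limits Msh4, Msh5, Fancc, Fancf and Fancl most, at a few CPM each.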
